A study of Arabidopsis thaliana with 30 samples.

Results

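The 5 genes described here encode seed storage globulins or close relatives of them in Arabidopsis thaliana, and were taken as the genes AT1G03890, PAP85 (AT3G22640), AT2G18540, AT2G28490 and AT4G36700, out of 13356 genes that the array annotation pairs with a probe set of their own. Each of the 5 was measured by 1 probe set (265094_at, 258327_at, 265949_at, 264079_at and 246273_at, in that order), and 0 probe sets pair any of them with another gene. Transcripts were measured on 30 Affymetrix Arabidopsis arrays in RNA of whole developing seeds removed from the siliques. Seeds were taken at 8 and 12 days after flowering (DAF) from wild-type Col-0 plants and homozygous fus3-3 plants, with Col-0 as the control of fus3-3, and from wild-type WS plants and homozygous lec1-1 and lec2-1 plants, with WS as the control of both. The growth chamber was held at 22 °C, with light for 16 of every 24 h, for all groups. Each of the 10 groups had 3 arrays, which the labels call biological replicates, and the seeds came from triplicate batches of plants. The series asks which seed genes depend on the regulators that the mutants lack.

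Storage globulins are the main proteins that a seed of this species lays down in the protein storage vacuoles of the embryo and draws on after germination. The legumin type is called cruciferin in the cabbage family, and the vicilin type is a separate, smaller class of the same cupin fold. Their genes are turned on in the embryo during maturation by a network of transcription factors that includes LEC1, a subunit of the NF-Y complex, and FUS3 and LEC2, which carry the B3 DNA-binding domain. AT1G03890 is a cruciferin-type member, PAP85 encodes a vicilin-like globulin, and AT2G18540, AT2G28490 and AT4G36700 belong to the same cupin superfamily. In the TAIR10.1 gene table of RefSeq, AT1G03890 lies directly beside CRU2, a classical cruciferin gene. CRU2 and the other classical cruciferin and albumin genes, 8 in all, were not analysed here, nor were FUS3, LEC1 and LEC2, so the genotype labels were not checked against the mutated genes.

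Values are the deposited log2 signals, on which 1 unit is a 2-fold difference, and ± after a group mean is the standard deviation (SD) over its 3 arrays. Precision is limited by there being 3 arrays a group. Array medians lay between 4.30 and 4.71 and array minima between 1.65 and 1.76, and replicate arrays correlated across genes, which are no independent replicates, with r between 0.984 and 0.996. Calls of higher or lower needed an adjusted p under 0.05 (limma, Benjamini-Hochberg over all genes) together with a 2-fold or larger difference. Log2 changes are given ± standard error (SE). Levels of different genes were measured by different probes and were not compared with each other.

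AT1G03890, the cruciferin-type gene, had the widest range of the 5, its group means spanning 12.21 log2 units. In Col-0 seeds the arrays read 11.23, 10.83 and 10.24 at 8 DAF and 14.36, 14.29 and 14.32 at 12 DAF. In fus3-3 seeds they read 2.32, 2.11 and 2.11 at 8 DAF and 8.60, 7.78 and 7.71 at 12 DAF. Every fus3-3 array thus lay below every Col-0 array of either age, and the fus3-3 arrays at 8 DAF lay close to the array minima, where a lower level could not be read. In WS seeds the arrays read 13.41, 13.48 and 13.73 at 8 DAF and 14.39, 14.43 and 14.34 at 12 DAF. In lec1-1 seeds they read 9.61, 9.59 and 9.34 at 8 DAF and 13.23, 13.28 and 13.31 at 12 DAF. In lec2-1 seeds they read 12.89, 12.52 and 12.79 at 8 DAF and 14.24, 14.33 and 14.25 at 12 DAF. The lec1-1 arrays were below the WS arrays at both ages without overlap, while the lec2-1 arrays at 12 DAF lay just under those of WS.

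From high to low, the group means of AT1G03890 ran WS, Col-0 and lec2-1 at 12 DAF, WS at 8 DAF, lec1-1 at 12 DAF, lec2-1, Col-0 and lec1-1 at 8 DAF, then fus3-3 at 12 and at 8 DAF. WS overlapped Col-0, and Col-0 overlapped lec2-1, at 12 DAF. From lec2-1 at 12 DAF downwards, no group's arrays overlapped those of the next.

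PAP85, the vicilin-like gene, took a similar course over a narrower range, between 14.50 ± 0.09 in Col-0 at 12 DAF and 11.75 ± 0.62 in fus3-3 at 8 DAF. Its arrays read 13.63, 13.73 and 13.33 in Col-0 and 12.30, 11.08 and 11.86 in fus3-3 at 8 DAF. At 12 DAF they read 14.47, 14.60 and 14.42 in Col-0 and 13.47, 12.89 and 12.63 in fus3-3. The fus3-3 arrays were low at both ages and spread more widely than those of the other groups. In lec1-1 seeds PAP85 read 12.94 ± 0.12 at 8 DAF and 13.74 ± 0.07 at 12 DAF, against 14.15 ± 0.09 and 14.46 ± 0.01 in WS. The 3 highest groups, Col-0, lec2-1 and WS at 12 DAF, could not be ordered because their arrays overlapped. Neighbours also overlapped from lec1-1 at 12 DAF down to lec1-1 at 8 DAF.

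AT2G28490, of the cupin superfamily, also stood highest in the 12 DAF wild types, at 14.44 ± 0.05 in WS and 14.33 ± 0.06 in Col-0. Its lowest group was lec1-1 at 8 DAF, with arrays of 11.99, 11.76 and 11.50, and not fus3-3 at 8 DAF, with arrays of 12.51, 12.15 and 12.11. These groups did not overlap each other. In the middle of its order lec2-1 at 8 DAF, fus3-3 and lec1-1 at 12 DAF and Col-0 at 8 DAF overlapped from neighbour to neighbour.

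AT4G36700, also of the cupin superfamily, was level between the ages in both wild types. Its arrays read 13.05, 13.10 and 12.98 at 8 DAF and 12.98, 12.93 and 12.99 at 12 DAF in Col-0. In WS they read 13.21, 13.25 and 13.24 at 8 DAF and 13.22, 13.15 and 13.28 at 12 DAF. The fus3-3 and lec1-1 seeds differed from this, while the lec2-1 arrays of the 2 ages overlapped. In fus3-3 the arrays read 11.87, 11.51 and 11.89 at 8 DAF and only 10.52, 10.03 and 9.46 at 12 DAF. In lec1-1 they read 12.42, 12.16 and 12.25 at 8 DAF and 9.84, 9.83 and 10.20 at 12 DAF. In lec2-1 they read 12.96, 12.76 and 12.90 at 8 DAF and 12.83, 12.70 and 12.69 at 12 DAF. The lowest groups were fus3-3 and lec1-1 at 12 DAF, which overlapped each other and lay below every other group.

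AT2G18540, the remaining cupin gene, gave a middling signal with wide spread, from 7.64 ± 0.26 in WS at 8 DAF to 5.60 ± 0.08 in lec1-1 at 12 DAF. Each of its 10 groups overlapped its neighbour in the order. The SD within a group reached 0.51, in WS at 12 DAF, where the arrays read 7.73, 6.96 and 7.91.

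**Figure D1:**
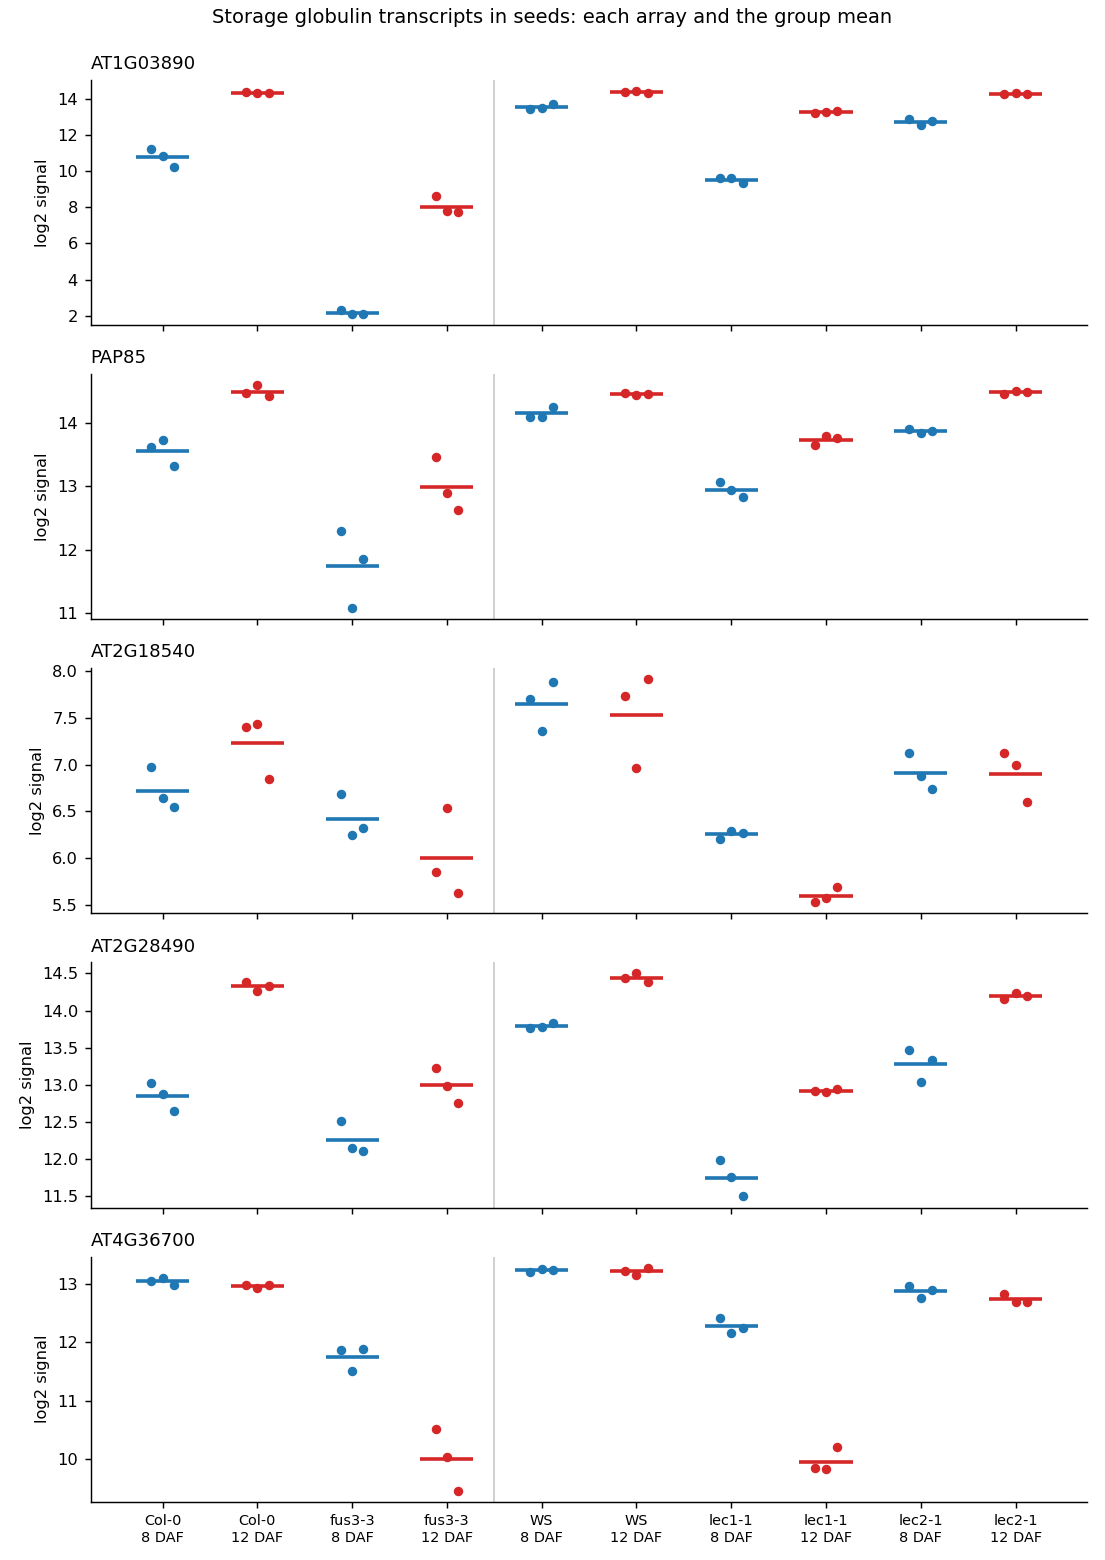
Log2 signal of the 5 storage globulin genes on every array, by genotype and age (DAF, days after flowering), with 8 DAF in blue, 12 DAF in red, points for arrays and lines for group means, and a log2 axis of its own in each panel. AT1G03890 ran from 2.18 in fus3-3 at 8 DAF to 14.39 in WS at 12 DAF, while AT4G36700 was lowest in fus3-3 and lec1-1 at 12 DAF, at 10.01 and 9.96.

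At 8 DAF, 3 of the 5 genes were called lower in fus3-3 than in Col-0, where 4.25% of all genes were called lower. The change of AT1G03890 was -8.59 ± 0.27 (adjusted p = 2.31e-07), the lowest of all 13356 genes, with a 95% interval of -9.20 to -7.97. Because its fus3-3 arrays lay near the bottom of the scale, this value may understate the fall. PAP85 changed by -1.82 ± 0.30 (adjusted p = 0.00309) and AT4G36700 by -1.29 ± 0.22 (adjusted p = 0.0039). AT2G28490 was 1.52-fold lower in fus3-3, with no overlap between the groups and an adjusted p of 0.022, but below the 2-fold minimum. Its adjusted p rose to as much as 0.0798 on leaving out 1 array. AT2G18540 overlapped between the groups at 8 DAF, with a change of -0.31 ± 0.25 and a 95% interval of -0.88 to 0.27. In RNA of whole seeds, fewer cells that express a gene and less of its RNA per cell cannot be told apart.

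At 12 DAF, 5 of the 5 genes were called lower in fus3-3, against 11.5% of all genes. AT1G03890 was again the most affected, at -6.29 ± 0.27 (adjusted p = 2.04e-07), or 78.4-fold lower. AT4G36700 was 7.79-fold lower, at -2.96 ± 0.22. PAP85, AT2G28490 and AT2G18540 were 2.83-fold, 2.52-fold and 2.33-fold lower, with adjusted p of 0.00314, 7.27e-05 and 0.00389. For 5 of the 5 genes every fus3-3 array at 12 DAF lay below every Col-0 array of that age, but so it was for 50.8% of all genes. The median change of the 5 genes was that of PAP85, against a median of -0.06 over all genes. As a measure of RNA quality, the signal of actin probes at the 3′ end exceeded that at the 5′ end by 5.91 ± 0.76 in fus3-3 and 4.87 ± 0.04 in Col-0 at 12 DAF. The GAPDH probes went the other way, with 1.92 ± 0.19 in fus3-3 and 2.37 ± 0.34 in Col-0. The part of these differences in the changes was not tested.

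In lec1-1 seeds at 8 DAF, 4 of the 5 genes were called lower than in WS, against 5.77% of all genes. AT1G03890 was 16.3-fold lower, at -4.03 ± 0.10 (adjusted p = 4.69e-12), and AT2G28490 was 4.13-fold lower, at -2.05 ± 0.11 (adjusted p = 7.3e-09). AT2G18540, at -1.39 ± 0.21 (adjusted p = 0.00016), and PAP85, at -1.21 ± 0.06 (adjusted p = 2.64e-09), were also called. AT4G36700 missed the fold minimum, at 1.94-fold lower with an adjusted p of 2.2e-06 and no overlap between the groups, and passed it without lec1-1 replicate 1 at 8 DAF (-1.02). When each array was centred on 4 reference genes, which raised every lec1-1 change at 8 DAF by 0.49, the count was 2, with PAP85 at -0.71 and AT2G18540 at -0.90 under the fold minimum. Before centring, the reference genes AT4G34270, AT2G28390 and PEX4 were themselves lower in lec1-1 at 8 DAF, at -0.64, -0.59 and -0.55 (adjusted p = 0.0148, 0.000164 and 0.000721). GAPC2 changed by -0.19, and the median of all genes was 0.007.

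At 12 DAF, 4 of the 5 genes were called lower in lec1-1, against 9.93% of all genes, but they were not the same 4. AT4G36700 now had the largest change, at -3.26 ± 0.09 (adjusted p = 4.98e-12), or 9.56-fold lower. AT2G18540 was 3.83-fold and AT2G28490 2.87-fold lower, with adjusted p of 3.08e-06 and 4.08e-08. AT1G03890 was only 2.16-fold lower, at -1.11 ± 0.10 (adjusted p = 3.12e-07), and fell under the fold minimum with quantile normalization (-0.92) or centring on reference genes (-0.63). PAP85 was 1.64-fold lower (adjusted p = 1.46e-07), below the fold minimum.

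In lec2-1 seeds the differences were small. At 8 DAF, 0 of the 5 genes passed both criteria in limma, against 1.08% of all genes called lower. At an adjusted p under 0.05 without a fold minimum, 5 of 5 were lower, as were 5.92% of all genes, and 5 of 5 were lower at an unadjusted p under 0.05, as were 11.8% of all genes. Leaving out 1 array took the adjusted p as high as 0.153 for AT2G18540 and 0.0975 for AT4G36700. For AT1G03890, PAP85 and AT2G28490 it stayed under 0.05. The largest change was that of AT1G03890, at -0.81 ± 0.10 (adjusted p = 0.000145), or 1.75-fold lower. AT2G18540, AT2G28490, AT4G36700 and PAP85 were 1.66-fold, 1.42-fold, 1.28-fold and 1.22-fold lower. For 5 of the 5 genes every lec2-1 array at 8 DAF lay below every WS array, as for 13.8% of all genes.

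At 12 DAF again 0 of the 5 genes were called lower in lec2-1, against 1.32% of all genes. By adjusted p alone 2 of 5 were lower, AT4G36700 (1.39-fold, adjusted p = 0.0017) and AT2G18540 (1.55-fold, adjusted p = 0.0332), where 26.4% of all genes were lower by that rule. The adjusted p of AT2G18540 rose to as much as 0.135 on leaving out 1 array. At an unadjusted p under 0.05, 3 of 5 and 36.4% of all genes were lower. AT1G03890 differed by -0.11 ± 0.10, with a 95% interval of -0.32 to 0.10. PAP85 differed by 0.03 ± 0.06, with an interval of -0.10 to 0.15. For these genes the interval thus left no room for a 2-fold difference between lec2-1 and WS at 12 DAF. On these arrays PAP85, AT1G03890 and AT2G28490 lay above the signal of at least 99.886% of probe sets in WS and lec2-1, and whether their signals were near saturation was not tested.

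**Figure D2:**
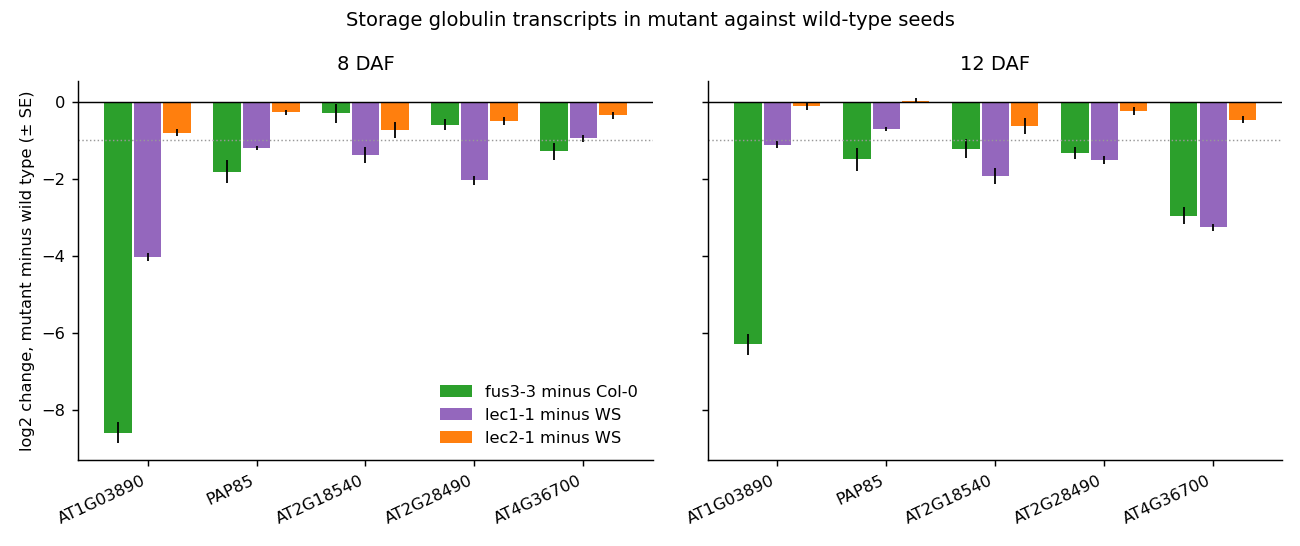
Log2 change of the 5 storage globulin genes, mutant minus its own wild type, at 8 and 12 DAF, with bars for the change, whiskers for its SE and a dotted line at 2-fold lower (n = 3 arrays a group). The fus3-3 bars of AT1G03890 reached -8.59 and -6.29, the lec1-1 bar of AT4G36700 went from -0.95 at 8 DAF to -3.26 at 12 DAF, and every lec2-1 bar stayed above -1.

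Between 8 and 12 DAF, AT1G03890 was called higher in 4 of the 5 genotypes, by very different amounts, while AT4G36700 was called lower in fus3-3 and lec1-1. In Col-0, 2 of the 5 genes were called higher at 12 than at 8 DAF, against 8.42% of all genes. These were AT1G03890, at 3.55 ± 0.27 (adjusted p = 1.04e-05), or 11.8-fold, and AT2G28490, at 1.47 ± 0.15 (adjusted p = 5.52e-05), or 2.77-fold. PAP85 was 1.91-fold higher at 12 DAF (adjusted p = 0.0411, and up to 0.135 on leaving out 1 array). In WS, 0 of 5 were called higher in limma, against 6.45% of all genes, because AT1G03890, AT2G28490 and PAP85 were only 1.80-fold, 1.57-fold and 1.24-fold higher. These 3 passed an adjusted p under 0.05 alone, as did 41.8% of all genes, and 3 were higher at an unadjusted p under 0.05, as were 45.9% of all genes. In WS at 8 DAF the lowest array percentiles of AT1G03890, AT2G28490 and PAP85 among probe sets were already 99.754, 99.851 and 99.899. Whether the top of the scale limited their rises was not tested.

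In fus3-3, 2 of the 5 genes were called higher at 12 DAF, against 4.25% of all genes, and 1 was called lower, against 4.81%. AT1G03890 rose by 5.85 ± 0.27 (adjusted p = 1.21e-06) from a level near the array minimum. PAP85 was called higher, at 1.25 ± 0.30 (adjusted p = 0.021). That call was lost without fus3-3 replicate 2 at 8 DAF (0.92, adjusted p = 0.0441) or replicate 1 at 12 DAF (1.01, adjusted p = 0.0691). AT4G36700 fell by 1.75 ± 0.22 (adjusted p = 0.000617), or 3.37-fold.

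In lec1-1, 2 genes were called higher at 12 DAF, against 6.20% of all genes, and 1 was called lower, against 4.93%. AT1G03890 rose 13.5-fold, at 3.76 ± 0.10 (adjusted p = 4.84e-12), and AT2G28490 rose 2.25-fold, at 1.17 ± 0.11 (adjusted p = 1.52e-06). AT4G36700 fell by 2.32 ± 0.09 (adjusted p = 2.47e-10), or 4.99-fold. In lec2-1, 1 gene was called higher, against 6.64% of all genes, which was AT1G03890 at 1.54 ± 0.10 (adjusted p = 2.23e-08). AT2G28490 was 1.89-fold higher in lec2-1 at 12 DAF (adjusted p = 1.33e-05), and passed 2-fold without lec2-1 replicate 1 at 8 DAF.

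The age change itself was then compared between each mutant and its wild type. It differed for the cruciferin-type gene and for AT4G36700 in opposite directions, in fus3-3 and in lec1-1 alike. For fus3-3, AT1G03890 was the 1 gene of the 5 called higher, against 8.25% of all genes, with a rise larger than that of Col-0 by 2.29 ± 0.39 (adjusted p = 0.00262). The size of this difference is not exact, since the fus3-3 arrays at 8 DAF lay near the array minima and those of Col-0 at 12 DAF came within 1.26 log2 units of an array maximum. AT4G36700 was the 1 called lower, against 7.55%, with a difference of -1.67 ± 0.32 (adjusted p = 0.00469). AT2G18540 was also called lower, at -1.18 (adjusted p = 0.0218), without fus3-3 replicate 2 at 12 DAF. For lec1-1, AT1G03890 was the 1 called higher, against 9.34%, at 2.91 ± 0.14 (adjusted p = 3.03e-09). AT4G36700 was the 1 called lower, against 6.68%, at -2.30 ± 0.13 (adjusted p = 1.55e-08). For lec2-1, 0 of the 5 were called in either direction in limma, against 2.01% of all genes called lower and 5.14% higher, and 2 were higher at an unadjusted p under 0.05, as were 12.0% of all genes. The difference of lec1-1 from WS thus went from -4.03 at 8 DAF to -1.11 at 12 DAF for AT1G03890. For AT4G36700 it went the other way, from -0.95 to -3.26. The WS signal of AT1G03890 at 12 DAF lay 1.17 log2 units under its array's maximum at the nearest, and the part of the top of the scale in the narrower gap was not tested.

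**Figure D3:**
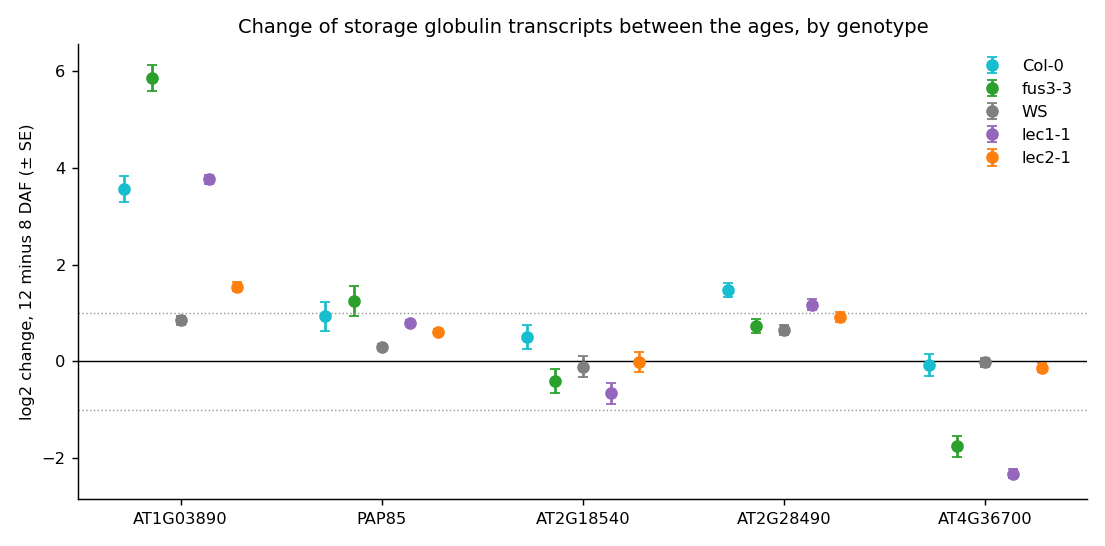
Log2 change of the 5 storage globulin genes from 8 to 12 DAF in each genotype, with points for the change, whiskers for its SE and dotted lines at 2-fold (n = 3 arrays a group). AT1G03890 rose by 5.85 in fus3-3 and 3.76 in lec1-1, and AT4G36700 lay near 0 in Col-0, WS and lec2-1 and at -1.75 and -2.32 in fus3-3 and lec1-1.

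The mutants that share the WS background were set against each other. At 8 DAF, 2 of the 5 genes were called lower in lec1-1 than in lec2-1, against 2.81% of all genes, AT1G03890 at -3.22 ± 0.10 (adjusted p = 1.13e-10) and AT2G28490 at -1.54 ± 0.11 (adjusted p = 2.71e-07). At 12 DAF, 4 of the 5 were called lower in lec1-1, against 5.49%. AT4G36700 differed most, at -2.78 ± 0.09 (adjusted p = 1.24e-10), followed by AT2G18540, 2.47-fold lower, and AT2G28490, 2.43-fold lower. AT1G03890 lay at the fold minimum, at -1.001 ± 0.097, and fell under it without lec1-1 replicate 1 (-0.98) or lec2-1 replicate 2 (-0.97) at 12 DAF. With centring on reference genes the count at 12 DAF was 1, AT4G36700.

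The effect of fus3-3 against Col-0 was compared with that of each lec mutant against WS in a fit over all 30 arrays, in which strain and mutation cannot be told apart. AT1G03890 was more strongly lowered in fus3-3 than in lec1-1, the effects differing by -4.56 ± 0.28 at 8 DAF (adjusted p = 2.6e-10) and -5.18 ± 0.28 at 12 DAF (adjusted p = 1.57e-11). It was the 1 gene of the 5 called in that direction at 8 DAF, against 2.25% of all genes, and at 12 DAF, against 4.70%. AT2G28490 went the other way at 8 DAF, the lec1-1 effect of -2.05 exceeding the fus3-3 effect of -0.60 by 1.45 ± 0.18 (adjusted p = 1.43e-05). AT2G18540 was the other of the 2 genes called in this direction, against 2.74%, at 1.08 ± 0.33 (adjusted p = 0.049). That call was lost on leaving out any 1 of 9 of the 12 arrays compared, with adjusted p up to 0.126. Centring on reference genes shifted the difference by -0.417, to below the fold minimum. The effects on AT4G36700 differed by -0.33 ± 0.23 at 8 DAF and 0.30 ± 0.23 at 12 DAF, with 95% intervals of -0.81 to 0.15 and -0.18 to 0.77. Against the lec2-1 effect, the fus3-3 effect was called lower for 2 of the 5 genes at 8 DAF, AT1G03890 and PAP85, against 2.90% of all genes, and for 4 of the 5 at 12 DAF, against 9.44%. At 12 DAF these were AT1G03890 at -6.18, AT4G36700 at -2.49, PAP85 at -1.53 and AT2G28490 at -1.09. AT2G28490 fell under the fold minimum without fus3-3 replicate 3 at 12 DAF (-0.98) and with quantile normalization (-0.75).

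Between the wild types, AT1G03890 was 6.83-fold higher in WS than in Col-0 at 8 DAF, at 2.77 ± 0.19 (adjusted p = 7.76e-10). It was the 1 gene of the 5 called higher there, against 3.17% of all genes. AT2G28490 and AT2G18540 were 1.92-fold and 1.90-fold higher in WS at 8 DAF, below the fold minimum, and the count became 3 without Col-0 replicate 1 at 8 DAF and 2 without WS replicate 2 at 8 DAF. At 12 DAF, 0 of the 5 were called higher in limma, against 2.02%, and 0 were higher at an unadjusted p under 0.05, where 29.1% of all genes were. AT1G03890 then differed by 0.06 ± 0.19, with a 95% interval of -0.34 to 0.47. Beside this, the seed coat gene BAN, an anthocyanidin reductase gene, read 10.19 in Col-0 and 6.82 in WS at 8 DAF. At 12 DAF BAN read 3.70 and 2.76. Whether the strains were at the same stage at 8 DAF was not tested. Strain, array set and mismatches of a strain to the probes cannot be told apart in a comparison of the wild types.

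Across the 10 group means the 5 genes fell into unlike patterns. AT1G03890 and PAP85 were most alike, with Pearson's r = 0.977, followed by AT2G18540 and AT4G36700 with r = 0.882 and PAP85 and AT2G28490 with r = 0.851. The other 7 pairs had r between 0.377 and 0.734, the lowest being AT1G03890 and AT4G36700. These are descriptions over 10 points that share arrays, genotypes and ages. For AT1G03890 the values lean on the point of fus3-3 at 8 DAF, which lay near the array minima at 2.18, where its next lowest group mean was 8.03. This holds for its closest matches below as well.

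For each of the 5, the genes with the most similar group means were sought among 2823 genes whose group means spanned at least 2 log2 units. PAP85 was the closest match of AT1G03890, ahead of AT1G71695 (r = 0.951) and AT1G62290 (r = 0.948). AT1G62290 encodes an aspartic protease and belongs to the list of genes for sorting and processing storage proteins. Like AT1G03890 it was lowest in fus3-3 at 8 DAF, at 9.58, and highest in WS at 12 DAF, at 14.20. The closest matches of PAP85 were AT1G65090 (r = 0.978), AT1G03890 and AT1G64680 (r = 0.975). AT4G36700 had the closest matches of all, AT4G12700 (r = 0.992), AT3G02630 (r = 0.985) and AT1G60970 (r = 0.977), each lowest in fus3-3 at 12 DAF. Those of AT2G28490 were IQD30 (r = 0.976), AT4G01460 (r = 0.974) and AT3G59300 (r = 0.961), each lowest in lec1-1 at 8 DAF. Those of AT2G18540 were AT4G33140 (r = 0.949), AT3G44820 (r = 0.938) and AT2G22270 (r = 0.936).

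**Figure D4:**
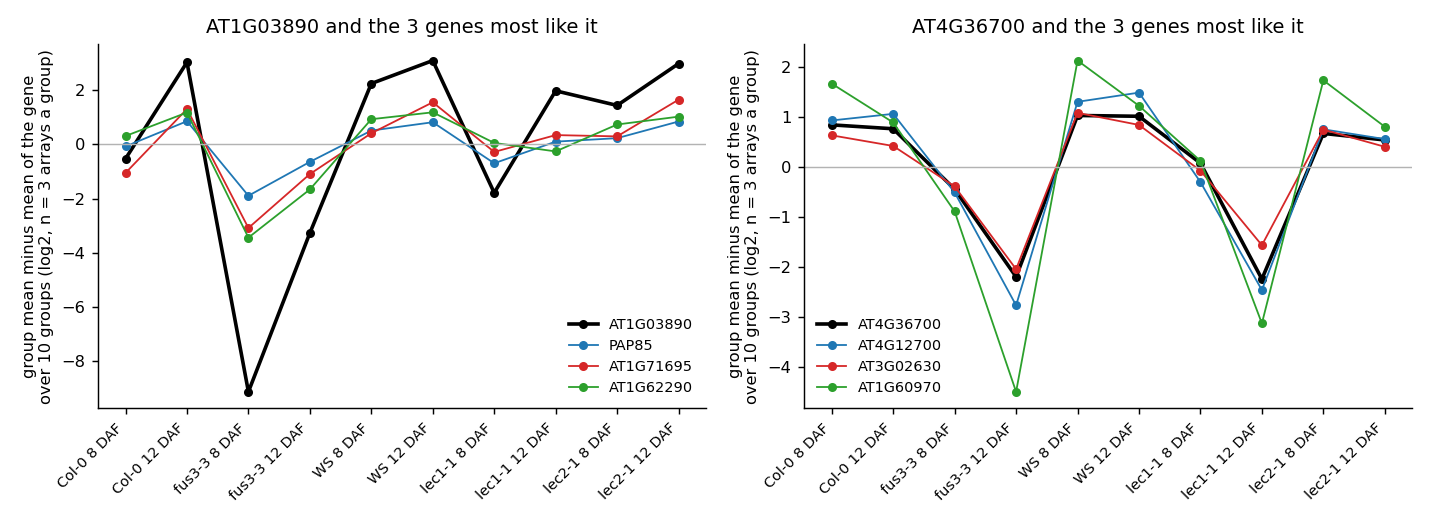
Group means of AT1G03890 (left) and AT4G36700 (right), in black, and of the 3 genes most like each, as log2 difference from the gene's own mean over the 10 groups, with lines only joining the points of a gene. The genes on the left were lowest in fus3-3 at 8 DAF and those on the right in fus3-3 or lec1-1 at 12 DAF, and PAP85 spanned 2.75 log2 units where AT1G03890 spanned 12.21.

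Storage globulins reach the vacuole as precursors and are cut there by vacuolar processing enzymes, so genes of sorting and processing were listed beside them, of which 8 of 30 were measured. Measured means here that the array annotation pairs a probe set with the gene alone. Other listed genes may lie among the probe sets paired with several genes or with none. In fus3-3, 2 of the 8 were lower than in Col-0 at 8 DAF, against 4.25% of all genes, and 3 at 12 DAF, against 11.5%, and 0 were higher. AT1G62290 changed by -3.75 ± 0.27 at 8 DAF and -2.83 ± 0.27 at 12 DAF. BETA-VPE, the seed-type processing enzyme that cuts storage globulins, changed by -1.47 ± 0.17 and -1.89 ± 0.17. GAMMA-VPE, best known from vegetative organs, was lower at 12 DAF, at -1.14 ± 0.18. In lec1-1 at 8 DAF, 0 of 8 were called, where 5.77% of all genes were lower. Below the fold minimum there, AT1G62290 changed by -0.87 ± 0.05 (adjusted p = 1.04e-08) and BETA-VPE by -0.70 ± 0.10 (adjusted p = 9.95e-05). ALPHA-VPE went the other way, at 0.94 ± 0.15 (adjusted p = 0.000199). At 12 DAF 4 were lower in lec1-1, against 9.93% of all genes. The largest of these changes was that of DELTA-VPE, known for its action in the seed coat, at -2.38 ± 0.18, ahead of BETA-VPE at -1.48 ± 0.10 and AT1G62290 at -1.44 ± 0.05. In lec2-1, 0 of 8 were called at either age, where 1.08% of all genes were lower at 8 DAF and 1.32% at 12 DAF. The list medians were -0.67 in fus3-3 and -0.93 in lec1-1 at 12 DAF, and those of all genes -0.06 and -0.11. BETA-VPE rose with age in Col-0, by 2.40 ± 0.17, in WS, by 1.59 ± 0.10, in fus3-3, by 1.97 ± 0.17, and in lec2-1, by 1.69 ± 0.10. In lec1-1 it rose by 0.81 ± 0.10 (adjusted p = 2.64e-05), below the fold minimum.

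Of 23 listed regulators of storage genes, 4 were measured, that is, paired with a probe set of their own. At 12 DAF 4 of the 4 were lower in fus3-3, 3 in lec1-1 and 1 in lec2-1, where 11.5%, 9.93% and 1.32% of all genes were. At 8 DAF 2 were lower in fus3-3, 3 in lec1-1 and 2 in lec2-1, where 4.25%, 5.77% and 1.08% of all genes were, and 0 were higher at either age. AGL67, a MADS-box gene, changed most, by -5.66 ± 0.25 in fus3-3 and -3.81 ± 0.30 in lec1-1 at 12 DAF. BBM, an AP2-type gene of embryogenesis, was the regulator lower in lec2-1 at 12 DAF, at -2.36 ± 0.30. EEL, a bZIP gene of late embryogenesis, changed by -2.25 ± 0.22 in fus3-3 and -2.33 ± 0.13 in lec1-1 at 12 DAF. BZIP53, which encodes a bZIP factor that acts on maturation genes, was lower in fus3-3, at -1.33 ± 0.17.

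Markers of other parts of seed and fruit moved in some of the same comparisons. Of 3 measured endosperm genes, AGL62 and IKU2 had means between 2.38 and 2.81 in the 10 groups. That is toward the bottom of the scale, with array minima of 1.65 to 1.76, and neither gene was called in any mutant. MPC was higher by 3.05 ± 0.15 in fus3-3 and 3.39 ± 0.33 in lec1-1 at 12 DAF. The mean of the 3 endosperm genes, of which MPC alone was called, was 3.40 to 3.69 on the fus3-3 arrays and 2.55 to 2.59 on those of Col-0 at 12 DAF. It was 3.41 to 3.91 in lec1-1, 2.67 to 3.08 in lec2-1 and 2.67 to 2.73 in WS. ALC, the 1 silique wall gene measured, was higher at 12 DAF in fus3-3 (1.67 ± 0.26), lec1-1 (2.06 ± 0.19) and lec2-1 (1.57 ± 0.19). Beside MPC and ALC, 1595 of all 13356 genes were called higher in fus3-3, 1383 in lec1-1 and 678 in lec2-1 at 12 DAF. Of the 3 seed coat genes, AT3G50990 was lower in fus3-3 at 8 DAF (-2.06 ± 0.29), where 4.25% of all genes were lower. In the other comparisons of a mutant with its own wild type 0 were called. BAN was lower in lec1-1 than in lec2-1 at 8 DAF (-1.18 ± 0.29), where 2.81% of all genes were lower. The mean of the 3 seed coat genes lay between 7.82 and 8.63 on the fus3-3 arrays and 8.92 and 9.11 on those of Col-0 at 8 DAF. The part of these differences in the storage globulin changes was not tested.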

How the data were processed

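The authors deposited log2 signals of 30 arrays, for which the submitters' processing notes name GCOS 1.3 and GCRMA. Whether all arrays were normalized at once is not stated there. GCRMA models background from probe sequence, which sets the bottom of the scale. The platform annotation pairs 13513 of the 22810 probe sets with 1 gene (13436 in the TAIR10.1 table), 503 with several and 8730 with no gene, and 64 are controls. Where a gene had several probe sets of its own, the brightest on average stood for it, which left 13356 genes.

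Groups were taken from the labels. Linear models (limma 3.58.1, R 4.3.3, 1 mean per group, eBayes) were fitted over all genes, separately for the 12 arrays of Col-0 and fus3-3 and the 18 of WS, lec1-1 and lec2-1, and over all 30 for contrasts across these sets. They were tested on simulated data. The titles of the Col-0 arrays at 12 DAF number them differently from the rest, while their descriptions call them biological replicates. If they share a batch of plants, p-values that involve them cover the spread of arrays alone. Replicate numbers were checked for pairing by correlating deviations from group means: only for fus3-3 at 12 against 8 DAF were all 3 over 0.1 (0.25, 0.22 and 0.45), from the data and not the labels.

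The genes named are the 5 members, the 3 genes most like each by Pearson's r, up to 3 risen and 3 fallen genes of each list, and the markers of other tissues. Members and lists were chosen with earlier results of these data known. Alternatives were quantile normalization again, centring on the 4 measured of 12 reference genes, dropping genes below the 40th percentile of mean signal, all probe sets except controls, 1 fit over all arrays, a block for the replicate number, no fold minimum, trended and robust variances, and leaving out each array. Sequences and promoters were not used here. Python 3.11.15, pandas 2.3.3 and matplotlib 3.10.9 were used for tables and figures.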

Additional observations from a re-analysis of the deposited data

Results flagged for a closer look

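The effect of age differed between mutant and wild type, by a test of that difference (limma, adjusted over all genes), for 2 of the 5 genes. Of all genes, 8.25% were called higher and 7.55% lower for fus3-3, and 9.34% higher and 6.68% lower for lec1-1. For AT1G03890 the rise was larger than in the wild type by 2.29 in fus3-3 (SE 0.39, adjusted p = 0.00262), whose arrays at 8 DAF lay near the bottom of the scale, and by 2.91 in lec1-1 (SE 0.14, adjusted p = 3.03e-09). At 12 DAF its signal came within 1.17 log2 units of an array maximum in WS and 1.26 in Col-0. The part of the top of the scale in these differences was not tested. For AT4G36700 the difference was -1.67 in fus3-3 (SE 0.32, adjusted p = 0.00469) and -2.30 in lec1-1 (SE 0.13, adjusted p = 1.55e-08).

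The effect of fus3-3 against Col-0 differed from that of lec1-1 against WS. For AT1G03890 the difference was -4.56 at 8 DAF and -5.18 at 12 DAF (adjusted p = 2.6e-10 and 1.57e-11). For AT2G28490 it was 1.45 at 8 DAF (adjusted p = 1.43e-05), the fus3-3 effect being the smaller. For AT2G18540 it was 1.08 (adjusted p = 0.049), a call that most of the left-out arrays undid, as did centring on reference genes.

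The effect of fus3-3 also differed from that of lec2-1. For AT1G03890 the difference was -7.78 at 8 DAF and -6.18 at 12 DAF (adjusted p = 9.77e-15 and 2.13e-13). For PAP85 it was -1.54 and -1.53 (adjusted p = 0.000896 and 0.000222). At 12 DAF it was -1.09 for AT2G28490 (adjusted p = 6.22e-05), which fell under the fold minimum with quantile normalization (-0.75) and without fus3-3 replicate 3 at 12 DAF (-0.98), and -2.49 for AT4G36700 (adjusted p = 1.87e-08). As fus3-3 and the lec mutants lie in different strains, strain and mutation cannot be told apart. Groups of 3 arrays were not searched for outlying arrays.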

How the results depend on the processing

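The replicate block left every count of the 5 called as it was (3 and 5 lower in fus3-3 at 8 and 12 DAF, and 3 called between the ages in fus3-3, where the numbers may pair arrays), as did trended variances, dropping dim genes, all probe sets and all arrays in 1 fit. Without the fold minimum, counts became 5 and 2 for lec2-1 against WS at 8 and 12 DAF (5.92% and 26.4% of all genes lower). Between the ages they became 3 in WS (41.8% of genes higher), 5 in lec1-1 (3937 of 13356 genes called) and 3 in lec2-1 (4276). For the age change of lec1-1 and lec2-1 against WS they became 4 and 2 (6490 and 2638 genes). At 8 DAF they became 5 for lec1-1 against lec2-1 (2430) and 4 for WS against Col-0 (2324). Centring on the 4 reference genes gave 2 for lec1-1 against WS at 8 DAF, 1 for lec1-1 against lec2-1 at 12 DAF and 2 for the fus3-3 against the lec1-1 effect at 12 DAF. It moved the median change of all genes in lec1-1 against WS from 0.01 to 0.50 at 8 DAF and from -0.11 to 0.37 at 12 DAF, and 1 of the 4, AT2G28390, was itself called lower in lec1-1 at 12 DAF (-1.08). Quantile normalization gave 2 for WS against Col-0 at 8 DAF, and ended the calls of AT1G03890 in lec1-1 against WS (-0.92) and against lec2-1 (-0.89) and of AT2G28490 in the fus3-3 against the lec2-1 effect (-0.75) at 12 DAF, and of AT2G18540 in the fus3-3 against the lec1-1 effect at 8 DAF (1.04, adjusted p = 0.0745).

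Uncalled values that changed sign under centring were, between the ages, 0.088 for AT4G36700 in Col-0, 0.025 and 0.119 for AT2G18540 and AT4G36700 in WS and 0.069 for AT2G18540 in lec2-1. For the fus3-3 against the lec1-1 effect at 12 DAF they were -0.201 for AT2G28490 and -0.095 for AT4G36700, and for WS against Col-0 at 12 DAF -0.089 for AT1G03890 and -0.037 for AT2G28490. With quantile normalization PAP85 became 0.03 in the latter. Leaving out each array gave 1 to 2 called between the ages in lec2-1, 1 to 3 for WS against Col-0 at 8 DAF and 1 to 2 for the fus3-3 against the lec1-1 effect at 12 DAF, where PAP85 was called without fus3-3 replicate 1 (-1.02) and AT2G18540 without WS replicate 2 (1.01), both at 12 DAF. It gave 2 to 3 between the ages in fus3-3, for the age change of fus3-3 against Col-0 and for the fus3-3 against the lec1-1 effect at 8 DAF, 4 to 5 for lec1-1 against WS at 8 DAF, and 3 to 4 for lec1-1 against lec2-1 and the fus3-3 against the lec2-1 effect at 12 DAF. Uncalled values near 0 ran from -0.015 to 0.595 for the age change of PAP85 in fus3-3 against Col-0 and from -0.22 to 0 for AT2G28490 in the fus3-3 against the lec2-1 effect at 8 DAF. Between the ages AT2G18540 ran from -0.299 to 0.178 in WS and from -0.121 to 0.14 in lec2-1, and from -0.19 to 0.287 in the difference between these. AT4G36700 in WS ran from -0.048 to 0.018, and PAP85 in WS against Col-0 at 12 DAF from -0.075 to 0.013. Where no value bears on it, the cause was not tested.

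Over all genes, counts of calls grew 1.89 to 2.13 times with all probe sets, which are more features, in all 22 comparisons, and 1.56 to 5.78 times without the fold minimum in 21 of 22. For the fus3-3 against the lec1-1 effect at 8 DAF the count went from 666 to 1125 with centring. Centring also moved the share of calls that were higher, from 45.2% to 82.0% and 51.1% to 76.9% in lec1-1 against WS at 8 and 12 DAF, 44.6% to 79.7% and 50.1% to 81.4% in lec1-1 against lec2-1, 55.0% to 18.7% and 43.5% to 14.5% for the fus3-3 against the lec1-1 effect, and 49.2% to 38.2% and 36.1% to 23.4% in WS against Col-0. It went from 59.8% to 72.5% in lec2-1 at 8 DAF, and between the ages from 46.5% to 56.6% in Col-0 and 46.9% to 59.4% in fus3-3.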
